A study of Mus musculus with 9 samples.

Results

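The genes described here are 42 mouse genes of the interferon response and of class I antigen presentation, taken as a list of gene symbols from the 27179 genes of the count table. They were followed in pneumospheres, floating spheres grown from dissociated embryonic lung, on day 3, day 7 and day 10 of culture, with 3 libraries a day and 9 in all. The cells came from lungs of C57/B6 embryos at E11.5. After trypsin and a short plating that leaves the fast-attaching cells behind, the cells in the supernatant were kept at 50000 cells per ml in low-attachment wells, in medium with bFGF, EGF and heparin, under 5% oxygen, and were split on day 3 and day 7. All 3 groups share strain, tissue, embryonic age, medium and oxygen, none received a treatment, and they differ by day in culture. Because the cultures were split on day 3 and day 7, day in culture and number of splits cannot be told apart. Whether the 3 libraries of each day represent different litters or cultures is not labelled, and the p-values measure the spread between these libraries, which may be technical.

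Interferons are secreted signal proteins, and the type I forms are released by cells that sense foreign nucleic acid. They bind the receptor pair Ifnar1 and Ifnar2, the kinases Jak1 and Tyk2 then phosphorylate Stat2, which joins Irf9 in the complex ISGF3, and this binds the interferon-stimulated response element (ISRE) of its target genes. Interferon gamma signals through Ifngr1 and Ifngr2 to genes with a gamma-activated site (GAS), and Irf1 carries the response on. The targets include antiviral effectors, large GTPases, the ubiquitin-like Isg15, and the machinery that cuts proteins into peptides, moves the peptides into the endoplasmic reticulum and loads them on class I molecules. Embryonic cells are known for low class I surface levels.

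The libraries held between 20716878 and 30466712 counted reads, so 3 reads in a library stood for 0.0987 to 0.149 CPM (reads per 1000000 of the library total, here scaled with TMM factors). Of the 27179 genes, 14940 passed the filter on low counts and were tested with edgeR's quasi-likelihood test, and a gene was called at a Benjamini-Hochberg adjusted p under 0.05 over all of these. In replicate 2 of day 3 a single gene with no name in the annotation took 6.79% of the reads, against 0.169 to 0.515% in the other 8 libraries, and replicate 3 of day 10 stood apart from the others of its day. Markers fixed for other cell types moved with the days. Summed over 10 erythroid genes the level was 1060 to 1270 CPM on day 3, 7.2 to 8.23 CPM on day 7 and 1.34 to 2.96 CPM on day 10. Summed over 13 mesenchymal genes it was 14700 to 16400 CPM on day 3, 28300 to 33800 CPM on day 7 and 43400 to 48900 CPM on day 10, mostly from 3 collagen genes. By day 10, 10 of the 13 rose and 3 fell (Tcf21, Tbx4 and Tbx5). For 10 endothelial genes the sums were 194 to 240 CPM on day 3, 262 to 360 CPM on day 7 and 143 to 160 CPM on day 10, carried by Emcn and Kdr. On day 7 against day 3, 1 of the 10 was called higher and 2 lower, with a median log2 change of 0. For 5 mesothelial genes the sums were 60.4 to 80.4, 32.5 to 37.9 and 14.6 to 26 CPM on days 3, 7 and 10, and for 6 neural genes 112 to 145, 16.2 to 21 and 13 to 14.7 CPM. The 12 lung epithelial markers summed to 1.46 to 2.37 CPM on day 3, 0.78 to 1.94 CPM on day 7 and 1.49 to 2.29 CPM on day 10, and Nkx2-1, Foxa1 and Shh, 3 defining markers of lung epithelium, had no read in any library. Of the 3 epithelial markers that were tested, 2 (Elf3 and Cldn7) were called higher and 1 (Epcam) lower on day 10 than on day 3, all with day means under 2 CPM. The part of these marker changes in the results below was not tested.

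Of the 42 genes, 27 rose by day 10 relative to day 3 (22 of them at least 2-fold), 1 fell (Rsad2), 8 were not called and 6 did not pass the filter and were not tested. Among all tested genes 29.5% were called higher and 27.2% lower in the same comparison, and the share at least 2-fold was not counted. Xaf1, Psmb8, Psmb9 and Gbp2, counted among the 27, passed the filter only through day 7 or day 10 libraries. The median log2 change of the 36 tested genes was 1.27, and that of all tested genes was 0. Without day 10 replicate 1, 2 genes fell by day 10 and 2 by day 7, Dhx58 being the other. By day 7, 16 of the 42 had risen relative to day 3 and Rsad2 had fallen, beside 22.8% of all tested genes called higher and 19% called lower. Between day 10 and day 7, 8 rose (Ifitm3, Xaf1, Parp14, Psmb8, Tap1, Tap2, H2-K1 and H2-D1) and 0 fell in edgeR, beside 4.41% of all tested genes called higher and 4.1% called lower, 8.51% in either direction. At an unadjusted p under 0.05 that comparison had 23 higher and 0 lower, beside 13% and 12.4% of all tested genes, and in DESeq2 it had 17 higher and 0 lower, beside 7.16% and 6.99%. The count of 8 depended on single libraries, and was 0 without day 7 replicate 2, 2 without day 7 replicate 3, 3 without day 7 replicate 1 and 5 without day 3 replicate 2. Over all 3 days at once, the test called 28 of the 42, beside 53.5% of all tested genes. In bulk RNA, fewer cells of a type and less RNA per cell cannot be told apart, which holds for every value below.

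**Figure D1:**
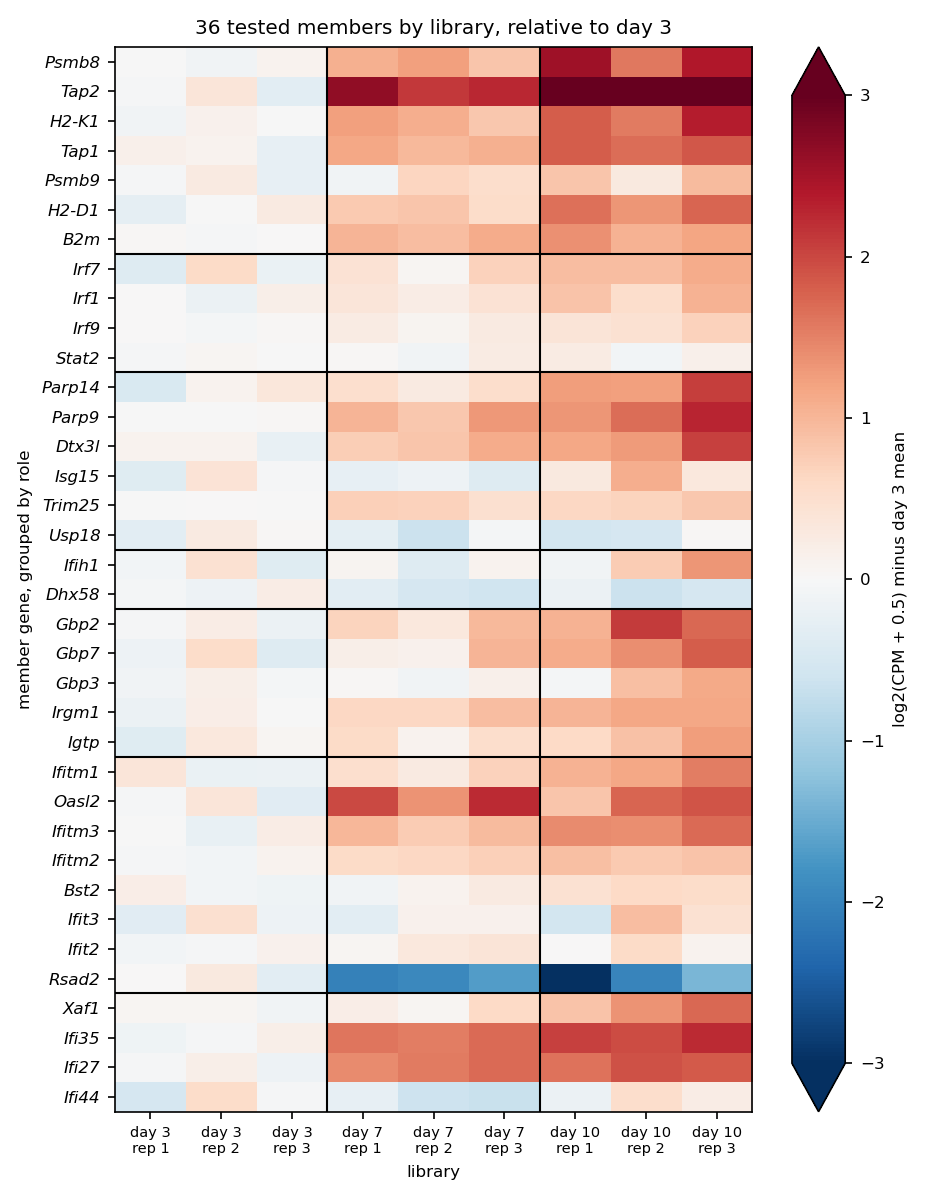
The 36 tested genes (rows, grouped by role) in the 9 libraries (columns, from day 3 to day 10), as log2(CPM + 0.5) minus the day 3 mean of the gene. Red is above and blue below the day 3 mean. Most rows darken in red toward day 10, and Rsad2 is the row with the deepest blue on day 7 and day 10.

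Promoters are shown for 5 of the genes, chosen because each holds an ISRE and because they differ in what they did: Isg15 (day 3 to day 10 not called), Rsad2 (fell), Gbp2 and Irgm1 (rose) and B2m (rose, the class I gene with a match). Each stretch is the 250 bases before the RefSeq start of the gene on GRCm38.p6, 5′ to 3′ on the gene's strand, and capitals mark matches to the ISRE core GAAANNGAAA on either strand. The stretches are chr4:156200819-156201068 on the minus strand for Isg15, chr12:26456453-26456702 on the minus strand for Rsad2, chr3:142620413-142620662 on the plus strand for Gbp2, chr11:48871421-48871670 on the minus strand for Irgm1 and chr2:122147437-122147686 on the plus strand for B2m.
Isg15: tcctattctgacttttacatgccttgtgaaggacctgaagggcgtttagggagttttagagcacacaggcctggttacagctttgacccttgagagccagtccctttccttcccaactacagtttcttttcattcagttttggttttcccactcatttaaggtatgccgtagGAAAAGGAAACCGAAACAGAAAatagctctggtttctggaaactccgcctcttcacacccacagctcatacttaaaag
Rsad2: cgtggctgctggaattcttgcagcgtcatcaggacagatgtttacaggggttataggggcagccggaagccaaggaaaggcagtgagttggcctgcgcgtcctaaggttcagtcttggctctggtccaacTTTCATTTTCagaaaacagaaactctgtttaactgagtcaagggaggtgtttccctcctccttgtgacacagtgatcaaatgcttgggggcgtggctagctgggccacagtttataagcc
Gbp2: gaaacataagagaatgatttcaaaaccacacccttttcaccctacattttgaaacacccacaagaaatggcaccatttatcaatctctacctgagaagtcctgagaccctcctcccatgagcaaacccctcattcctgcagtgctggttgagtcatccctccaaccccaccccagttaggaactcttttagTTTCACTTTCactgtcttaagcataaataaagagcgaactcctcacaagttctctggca
Irgm1: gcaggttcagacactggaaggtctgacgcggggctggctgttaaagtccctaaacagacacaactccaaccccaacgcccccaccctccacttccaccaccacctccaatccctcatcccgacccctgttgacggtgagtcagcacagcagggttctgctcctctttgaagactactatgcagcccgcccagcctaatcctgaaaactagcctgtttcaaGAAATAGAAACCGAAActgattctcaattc
B2m: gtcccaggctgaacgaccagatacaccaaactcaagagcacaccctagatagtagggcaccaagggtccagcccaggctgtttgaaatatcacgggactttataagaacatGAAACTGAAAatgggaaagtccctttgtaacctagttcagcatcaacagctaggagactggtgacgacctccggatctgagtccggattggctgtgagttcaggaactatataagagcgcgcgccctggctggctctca

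The Isg15 stretch holds 3 overlapping matches that begin 78, 72 and 66 bases before the start, so that the GAAA unit is repeated every 6 bases. Irgm1, with 2 overlapping matches 30 and 24 bases before its start, has the same arrangement closer in. Single matches stand 120 bases before the start in Rsad2, 59 in Gbp2 and 139 in B2m. Matches were counted in RefSeq windows of 300 bases, from 250 before to 50 after each start, which were on hand for 33 of the 42 genes, and 16 of them held the ISRE core, against 3.99% of all 27025 genes with a window. The GAS letters TTCNNNGAA (the same on both strands) were in 10 of the 33, against 9.55% of all genes. The ISRE core was in 9 of the 23 matched genes that rose by day 10, in 4 of the 6 that were tested and not called, in the 1 that fell and in 2 of the 3 not tested. By role it was in 5 of 5 interferon-inducible GTPases, 7 of 11 antiviral effectors and 1 of 6 class I genes. These are matches of letters and say nothing of binding.

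The 7 class I genes all rose by day 10 in edgeR, beside 29.5% of all tested genes, and 6 did in DESeq2, where Psmb9 was not called. Psmb8 and Psmb9 passed the low-count filter only through day 7 and day 10 libraries, so their place among the genes that rose is a description. By day 7, 6 of the 7, all but Psmb9, had risen, beside 22.8% of all tested genes. The median log2 change of the 7 from day 3 to day 10 was 1.90. Class I molecules consist of a heavy chain, here H2-K1 and H2-D1, and the light chain B2m. B2m (chr2:122147687-122153082) had the highest level per length of the 7, with 78, 73.9 and 76.3 CPM on day 3, 155, 146 and 164 CPM on day 7, and 198, 156 and 173 CPM on day 10. Every day 7 and day 10 library lay above every day 3 library, and the day 10 range overlapped that of day 7. The change from day 3 to day 10 was 2.31-fold (log2 1.21 ± 0.09 SE, adjusted p = 3.94e-06). B2m averaged 155 ± 9.23 CPM on day 7, against 76.1 ± 2.07 CPM on day 3 (SD, n = 3 each).

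The heavy chains were far scarcer than B2m also when divided by the length of their exons. H2-K1 (chr17:33996012-34000619) had 1.9, 2.33 and 2.07 CPM on day 3, 5.62, 5.06 and 4.06 CPM on day 7, and 8.58, 7.12 and 12.9 CPM on day 10. The 3 days did not overlap. It rose 4.54-fold from day 3 to day 10 (log2 2.18 ± 0.24 SE, adjusted p = 4.77e-05). H2-D1 (chr17:35263094-35267497) had 1.54, 1.93 and 2.42 CPM on day 3, 3.72, 3.83 and 3.04 CPM on day 7, and 7.14, 5.6 and 7.73 CPM on day 10, again with no overlap between days, and rose 3.48-fold (log2 1.80 ± 0.21 SE, adjusted p = 7.26e-05). In CPM per kb of exon, a scale on which levels of different genes can be set side by side, B2m stood at 204 on day 10, H2-K1 at 5.76 and H2-D1 at 3.25. On day 3 the same levels per kb were 88.4 for B2m, 1.27 for H2-K1 and 0.934 for H2-D1. Of the 50-base stretches of its transcripts, H2-K1 shares 9.63% and H2-D1 12.8% with other genes, so reads could have been split or lost there.

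The peptide transporter is a pair of Tap1 and Tap2, and both chains rose at each step. Tap1 (chr17:34187556-34197225) had 4, 3.86 and 2.95 CPM on day 3, 8.55, 7.57 and 8.04 CPM on day 7, and 13.9, 12.4 and 14.3 CPM on day 10. Its 3 days were fully separated, and it rose 3.74-fold from day 3 to day 10 (log2 1.90 ± 0.15 SE, adjusted p = 4.5e-06). Tap2 (chr17:34204479-34216321) began lower, at 0.97, 1.42 and 0.705 CPM on day 3, 9.08, 6.09 and 6.75 CPM on day 7, and 14.5, 12.5 and 17.3 CPM on day 10. The libraries of each day again lay above all those of the day before, and the change over the whole time was 14.2-fold (log2 3.82 ± 0.26 SE, adjusted p = 2.48e-06). On day 3 Tap2 stood at 0.3 CPM per kb and Tap1 at 1.22, and on day 10 Tap2 stood at 4.29 and Tap1 at 4.58. The calls between day 10 and day 7 were lost without day 7 replicate 2 (adjusted p = 0.0617 for Tap1 and 0.0949 for Tap2), and that of Tap2 also without day 7 replicate 3 (0.0785).

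Psmb8 and Psmb9 are the catalytic subunits that replace Psmb5 and Psmb6 in the immunoproteasome. Psmb8 (chr17:34198195-34201454) had 0.0809, 0.0394 and 0.132 CPM on day 3, 0.723, 0.864 and 0.546 CPM on day 7, and 2.88, 1.24 and 2.58 CPM on day 10. Counted, these were 2, 1 and 3 reads on day 3, 22, 21 and 14 reads on day 7, and 58, 31 and 73 reads on day 10, so the day 3 values rest on a few reads. All day 10 libraries lay above all day 7 libraries and these above all of day 3, and the change from day 3 to day 10 was log2 4.67 ± 0.51 SE, adjusted p = 3.93e-05. The fitted fold of such a scarce gene depends on the prior count, and the ratio of the summed reads, 162 on day 10 against 6 on day 3, was 26.7 with a 95% counting interval of 12 to 73.9. Psmb9 (chr17:34182030-34187330) had only 0.121, 0.276 and 0.0441 CPM on day 3, 0.0987, 0.494 and 0.429 CPM on day 7, and 0.644, 0.28 and 0.741 CPM on day 10. Day 7 overlapped both other days, and the lowest day 10 library lay just above the highest of day 3. Psmb9 was not called among the 3 days (adjusted p = 0.112). In edgeR it was called higher on day 10 than on day 3 (log2 1.85 ± 0.70 SE, adjusted p = 0.0442), with 41 reads against 11, and in DESeq2 it was not (adjusted p = 0.0516). That call was lost without 5 single libraries (adjusted p = 0.12 without day 3 replicate 1, 0.133 without day 3 replicate 3, 0.0565 without day 7 replicate 3, 0.0884 without day 10 replicate 1 and 0.12 without day 10 replicate 3), and the log2 change was 2.65 without day 3 replicate 2. Psmb9, Tap1, Psmb8 and Tap2 stand in this order side by side on chromosome 17, with gaps of 225, 969 and 3024 bases.

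The standard subunits went the other way. From day 3 to day 10, Psmb7 fell by 0.52 on the log2 scale (adjusted p = 0.00109), Psmb5 fell by 0.35 (adjusted p = 0.0285) and Psmb6 fell by 0.27 (adjusted p = 0.0348). The calls of Psmb5 and Psmb6 were lost without day 3 replicate 1, day 3 replicate 3 or day 10 replicate 3, and that of Psmb6 also without day 10 replicate 2 (adjusted p between 0.0604 and 0.114 for Psmb6, between 0.0707 and 0.101 for Psmb5). Per length, Psmb8 made up 0.0573 to 0.166% of the sum of Psmb8 and Psmb5 on day 3, 0.864 to 1.24% on day 7 and 1.91 to 4.88% on day 10. Psmb9 made up 0.0214 to 0.15% of its sum with Psmb6 on day 3, 0.0617 to 0.266% on day 7 and 0.169 to 0.517% on day 10. The third inducible subunit, Psmb10, held a larger share, at 5.78 to 6.21% of its sum with Psmb7 on day 3, 9.18 to 12.3% on day 7 and 10.5 to 15.3% on day 10. In all 3 pairs and on every day, the standard subunit made up the larger share of the RNA.

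**Figure D2:**
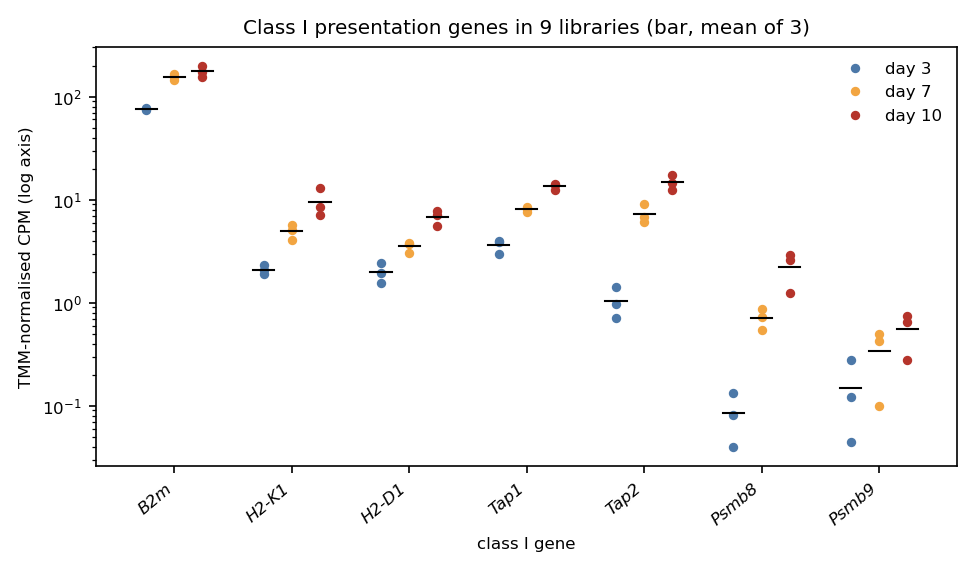
The 7 class I genes (horizontal axis) in TMM-normalised CPM on a log axis, 1 point a library and a bar at the mean of the 3 libraries of a day, with day 3, day 7 and day 10 from left to right. H2-K1, H2-D1, Tap1, Tap2 and Psmb8 step up at each day without overlap, B2m overlaps between day 7 and day 10, and the day 7 points of Psmb9 overlap those of the other days.

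Of 20 other genes of class I assembly and regulation, 12 rose by day 10 relative to day 3, 2 fell, 4 were not called and 2 were not tested, with a median log2 change of 0.55. The 12 were 66.7% of the 18 tested, beside 29.5% of all tested genes called higher. Fcgrt, a class I-like receptor for antibodies, had 58.4, 59.3 and 60.5 CPM on day 3, 215, 170.2 and 144 CPM on day 7, and 207, 208 and 253 CPM on day 10 (log2 1.91 ± 0.14 SE, adjusted p = 3.63e-06). Tapbp (tapasin), the bridge between the transporter and the class I molecule, had 10.2, 8.36 and 7.89 CPM on day 3, 19.3, 17.6 and 17 CPM on day 7, and 31.6, 25 and 29 CPM on day 10 (log2 1.69 ± 0.13 SE, adjusted p = 4.22e-06). Both were higher in every day 10 library than in any day 3 library. The class I-like genes H2-T22 and Mr1, a presenter of vitamin metabolites, rose by log2 0.94 ± 0.11 (SE, adjusted p = 5.89e-05) and 1.81 ± 0.26 (SE, adjusted p = 0.000214). Nlrc5, the transactivator of class I genes, did not pass the filter and had at most 0.117 CPM in any library. Of 8 class II genes 2 rose by day 10, the peptide exchangers H2-DMa (log2 2.20 ± 0.20, SE, adjusted p = 1.26e-05) and H2-DMb1 (log2 2.19 ± 0.32, SE, adjusted p = 0.000239), and 6 were not called. That share, 25% of the 8, is near the 29.5% of all tested genes called higher.

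The factors that carry the response include Stat2, Irf9, Irf1 and Irf7, and 3 of the 4 rose by day 10, beside 29.5% of all tested genes. Their median log2 change was 0.70. Stat2, the partner of Irf9 in ISGF3, was not called, and its libraries ranged from 42 to 45.4 CPM on day 3, from 40.5 to 51.3 CPM on day 7 and from 40.9 to 51.8 CPM on day 10 (log2 0.11 ± 0.11, SE, adjusted p = 0.413 for day 10 against day 3). Irf9 had 12, 11.4 and 12.1 CPM on day 3, 14.1, 12.5 and 14.3 CPM on day 7, and 15.7, 16.4 and 19.4 CPM on day 10. Its day 10 libraries lay above all others, and it rose 1.46-fold from day 3 to day 10 (log2 0.54 ± 0.11 SE, adjusted p = 0.00214). Irf1 had 10.4, 9.11 and 11.8 CPM on day 3, 13.6, 12.2 and 14.2 CPM on day 7, and 19.2, 15.2 and 21.8 CPM on day 10, with the same order of days and no overlap between them, and rose 1.8-fold (log2 0.85 ± 0.15 SE, adjusted p = 0.00086). Irf7, which amplifies interferon production, was scarce at 0.566, 1.58 and 0.705 CPM on day 3, 1.38, 0.946 and 1.76 CPM on day 7, and 2.13, 2.12 and 2.5 CPM on day 10. Replicate 2 of day 3 overlapped the day 7 values, all day 10 libraries lay above all others, and the rise was 2.36-fold (log2 1.24 ± 0.37 SE, adjusted p = 0.0167), with the call lost without day 3 replicate 1 (adjusted p = 0.0655) or day 3 replicate 3 (0.0642). None of the 4 was called for day 7 against day 3.

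Among 7 further factors and feedback genes, 5 rose by day 10, 1 fell and 1 was not called, beside 29.5% of all tested genes called higher. Irf2, a counterpart of Irf1 at the same sites, rose by log2 0.91 ± 0.12 (SE, adjusted p = 0.000151), and Socs1, a feedback inhibitor of the kinases, rose by 0.84 ± 0.13 (SE, adjusted p = 0.000459). Irf8, a factor of myeloid cells, fell to 1.83, 1.92 and 2.79 CPM on day 10, against 15.1, 16.6 and 15.2 CPM on day 3 (log2 -2.83 ± 0.18 SE, adjusted p = 1.76e-06). Beside it, the 16 leukocyte markers summed to 15.8 to 27.8 CPM on day 3, 10.1 to 18.8 CPM on day 7 and 8.29 to 12.7 CPM on day 10, and their part in any of these results was not tested. C1qa had no read on day 10.

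No interferon ligand could be tested. Of 9 listed, Ifnb1, Ifna1, Ifna2, Ifna4, Ifnk, Ifnl2 and Ifnl3 had 0 reads in all 9 libraries, which at 3 reads a library allows up to 0.0987 to 0.149 CPM. Ifng had 1 read in a single day 7 library (0.0329 CPM), and Ifnz, a type I ligand, had 0.0496 to 0.263 CPM with no order by day. The receptors were well measured. Ifnar1 had 185 to 190.3 CPM on day 3, 183 to 188 CPM on day 7 and 189.6 to 197 CPM on day 10 and was not called in any comparison. Ifnar2 had 45.2, 46.5 and 45 CPM on day 3, 55, 49 and 49.3 CPM on day 7, and 53.3, 56.9 and 63 CPM on day 10, and rose by day 10 (log2 0.34 ± 0.08 SE, adjusted p = 0.00496). The receptor of interferon gamma moved more. Ifngr1, its binding chain, had 68, 64.3 and 58.5 CPM on day 3, 129.7, 116 and 119 CPM on day 7, and 189, 176 and 156 CPM on day 10, with no overlap between days (log2 1.45 ± 0.09 SE, adjusted p = 1.42e-06). Ifngr2, its signalling chain, had 30.7, 33.4 and 31.8 CPM on day 3, 71.2, 81.4 and 73.6 CPM on day 7, and 106, 104 and 73.9 CPM on day 10 (log2 1.57 ± 0.13 SE, adjusted p = 7.51e-06), and day 10 replicate 3 fell within the day 7 range. Il10rb, a chain shared with the receptor of type III interferons, rose by log2 1.48 ± 0.12 (SE, adjusted p = 6.6e-06), while its partner Ifnlr1 had at most 0.22 CPM. Of the kinases Jak2 rose by 0.52 ± 0.07 (SE, adjusted p = 0.000116), Tyk2 by 0.48 ± 0.10 (SE, adjusted p = 0.00177), and Jak1 fell by 0.39 (adjusted p = 0.00239). In all, 6 of the 9 receptor and kinase genes rose, 1 fell, 1 was not called and 1 was not tested. Those that rose were 75% of the 8 tested, beside 29.5% of all tested genes called higher.

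The ISG15 group holds Isg15, its protease Usp18, and ubiquitin ligases and ADP-ribosyltransferases. Of its 6 genes 4 rose by day 10 (Parp9, Parp14, Dtx3l and Trim25), beside 29.5% of all tested genes. The median log2 change of the group was 1.37. Neither Isg15 nor Usp18 was called for day 10 against day 3. Isg15, a ubiquitin-like tag that marks the interferon response in many tissues, had 0.323, 0.907 and 0.529 CPM on day 3, 0.395, 0.452 and 0.312 CPM on day 7, and 0.793, 1.76 and 0.811 CPM on day 10. Day 3 overlapped both other days, day 10 lay above day 7, and day 10 replicate 2 was the highest of all 9. It was called among the 3 days (adjusted p = 0.0385) but not for day 10 against day 3 (log2 0.93 ± 0.44 SE, adjusted p = 0.0946). Without day 3 replicate 2 that comparison was called (adjusted p = 0.0399). Usp18 lay between 0.247 and 0.907 CPM in all libraries and was not called.

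Parp9 and Dtx3l act as a complex, and they overlap by 558 bases on chromosome 16, 54996 bases from Parp14. Parp9 had 2.22, 2.21 and 2.29 CPM on day 3, 5.06, 4.28 and 6.24 CPM on day 7, and 6.39, 8.32 and 12.9 CPM on day 10. Its 3 days did not overlap, and it rose 4.11-fold by day 10 (log2 2.04 ± 0.26 SE, adjusted p = 0.000116). Dtx3l, its ubiquitin ligase partner, had 1.78, 1.77 and 1.32 CPM on day 3, 3.03, 3.25 and 4.1 CPM on day 7, and 4.21, 4.64 and 8.33 CPM on day 10, in the same order of days and with day 10 replicate 3 the highest library, as for Parp9. It rose 3.53-fold (log2 1.82 ± 0.29 SE, adjusted p = 0.000436). Parp14 had 0.323, 0.71 and 0.925 CPM on day 3, 1.09, 0.864 and 1.13 CPM on day 7, and 2.18, 2.12 and 4.23 CPM on day 10, rose 4.39-fold (log2 2.13 ± 0.40 SE, adjusted p = 0.00118), and was higher in each day 10 library than in any earlier one. Without strand in the counting, the overlapping reads of Parp9 and Dtx3l cannot be told apart. Trim25, a ubiquitin ligase that activates RNA sensing, had the highest level per length of the group, with 54.7, 55.6 and 53.9 CPM on day 3, 90.7, 89.4 and 76.8 CPM on day 7, and 83.9, 87.4 and 96 CPM on day 10. It rose by day 7 (log2 0.65 ± 0.08 SE, adjusted p = 0.000215) and its day 10 range overlapped that of day 7, with a change of 1.63-fold over the whole time (log2 0.70 ± 0.08 SE, adjusted p = 6.35e-05).

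Neither RNA sensor was called. Ifih1 (MDA5), which binds long double-stranded RNA, ranged from 1.37 to 2.8 CPM on day 3, from 1.36 to 2.11 CPM on day 7 and from 1.74 to 5.5 CPM on day 10, and without day 10 replicate 1 it was called higher on day 10 than on day 3 (adjusted p = 0.0127). Dhx58 (LGP2), its regulator, ranged from 2.29 to 3.08 CPM on day 3, from 1.56 to 1.97 CPM on day 7 and from 1.48 to 2.23 CPM on day 10, with all day 3 libraries highest (log2 -0.54 ± 0.23, SE, adjusted p = 0.065 for day 10 against day 3). Dhx58 was called lower with library size alone as scaling (adjusted p = 0.0472) and without day 10 replicate 1 (0.0291). Of 16 genes of sensing and induction, 6 rose by day 10, 1 fell, 5 were not called and 4 were not tested. The 6 were 50% of the 12 tested, beside 29.5% of all tested genes called higher. Among those that rose was Ddx58 (RIG-I), a further RNA sensor. Its call was lost without day 3 replicate 1, 2 or 3 or day 10 replicate 3 (adjusted p between 0.0719 and 0.098). Ikbke, a kinase that activates Irf3, had 6.31, 7.92 and 7.45 CPM on day 3, 18.3, 13.4 and 19.5 CPM on day 7, and 19.9, 18.4 and 24.4 CPM on day 10 (log2 1.53 ± 0.17 SE, adjusted p = 4.61e-05). Tlr3, an endosomal receptor of double-stranded RNA, had 1.13, 2.09 and 1.85 CPM on day 3, 3.39, 2.63 and 4.25 CPM on day 7, and 6.05, 5.48 and 7.76 CPM on day 10 (log2 1.93 ± 0.27 SE, adjusted p = 0.0002), with no overlap between days. Tmem173 (STING), the adaptor of DNA sensing, fell to 49.5, 49.3 and 36.6 CPM on day 10, against 76, 72.3 and 77 CPM on day 3 (log2 -0.74 ± 0.13 SE, adjusted p = 0.000952). Nfkb1 rose by log2 0.43 ± 0.09 (SE, adjusted p = 0.00171).

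The 5 interferon-inducible GTPases, which act at the membranes around intracellular microbes, all rose by day 10, beside 29.5% of all tested genes. Their median log2 change was 1.30. Irgm1, a regulator of this family, had 5.09, 6.74 and 5.77 CPM on day 3, 9.27, 9.17 and 11.6 CPM on day 7, and 12.4, 13.6 and 13.6 CPM on day 10. No day overlapped another, and it rose 2.25-fold (log2 1.17 ± 0.15 SE, adjusted p = 9.42e-05). Igtp (Irgm3) had 0.93, 1.81 and 1.41 CPM on day 3, 2.24, 1.48 and 2.15 CPM on day 7, and 2.28, 2.92 and 3.88 CPM on day 10 and rose 2.19-fold (log2 1.13 ± 0.30 SE, adjusted p = 0.00912). Day 3 replicate 2 fell within the day 7 range, and all day 10 libraries lay above the others. Igtp shares 11.8% of its 50-base stretches with other genes, mainly Irgm2.

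Gbp7, Gbp3 and Gbp2 are guanylate-binding proteins and lie near each other on chromosome 3, with 9864 and 47449 bases between them. Gbp7 had 1.5, 2.72 and 1.19 CPM on day 3, 2.01, 1.93 and 3.98 CPM on day 7, and 4.31, 5.28 and 7.34 CPM on day 10. Day 10 lay above all else, and the rise was 3.12-fold (log2 1.64 ± 0.38 SE, adjusted p = 0.00427). Gbp2 had 0.243, 0.394 and 0.176 CPM on day 3, 0.723, 0.452 and 1.01 CPM on day 7, and 1.09, 2.76 and 2.01 CPM on day 10, separated between all 3 days. The closest libraries of day 3 and day 7 held 10 and 11 reads. Gbp2 passed the low-count filter only through day 7 and day 10 libraries. It rose by day 10 (log2 2.83 ± 0.47 SE, adjusted p = 0.000559), and the ratio of its summed reads, 148 on day 10 against 20 on day 3, was 7.33 with a 95% counting interval of 4.58 to 12.3. Its rise by day 7 was called (log2 1.40 ± 0.50 SE, adjusted p = 0.0459) and was lost without 5 of the single libraries (day 3 replicates 1, 2 and 3, and day 7 replicates 1 and 3), with adjusted p between 0.0505 and 0.146. Gbp3 had 0.364, 0.552 and 0.397 CPM on day 3, 0.46, 0.37 and 0.546 CPM on day 7, and 0.397, 1.24 and 1.55 CPM on day 10. Day 10 replicate 1 lay within the day 3 range, and the call (log2 1.30 ± 0.46 SE, adjusted p = 0.0327) was lost without any 1 of the day 3 libraries, day 10 replicate 2 or day 10 replicate 3 (adjusted p between 0.0511 and 0.128). Gbp4 and Gbp9, of the same family, fell. Gbp9 was at 1.59, 4.04 and 4.27 CPM on day 10, against 24.3, 29.4 and 31.8 CPM on day 3 (log2 -3.09 ± 0.31 SE, adjusted p = 3.79e-05), and Gbp4 at 0.248, 0.36 and 0.247 CPM on day 10, against 4.25, 4.14 and 4.05 CPM on day 3 (log2 -3.84 ± 0.33 SE, adjusted p = 9.99e-06). Neither overlapped between the 2 days. Gbp7 shares 12.7% of its 50-base stretches with other genes, 10.5% with Gm43802.

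Of the 13 antiviral effectors, 5 rose by day 10, Rsad2 fell, 2 were not called and 5 were not tested. Those that rose were 62.5% of the 8 tested, beside 29.5% of all tested genes called higher. The median log2 change of the 8 tested was 0.71. The 3 Ifitm proteins, which block virus entry at membranes, stand in 1 stretch of chromosome 7 and differ widely in level. Ifitm2 had 159, 152 and 175 CPM on day 3, 241, 247 and 264 CPM on day 7, and 305, 281 and 293 CPM on day 10, the highest level per length of the 42 genes on every day (247, 383 and 447 CPM per kb on days 3, 7 and 10). Its days did not overlap and it rose 1.81-fold (log2 0.86 ± 0.08 SE, adjusted p = 1.09e-05). It shares 48.5% of its 50-base stretches with other genes, so part of its reads could belong elsewhere. Ifitm3, the best known antiviral member, had 28.7, 24.9 and 34.2 CPM on day 3, 58.2, 49.7 and 56.9 CPM on day 7, and 78.1, 76.9 and 95.4 CPM on day 10 and rose 2.85-fold (log2 1.51 ± 0.13 SE, adjusted p = 9.48e-06), with each day above the last. Ifitm1, at 1.05, 0.552 and 0.573 CPM on day 3, 1.22, 0.946 and 1.44 CPM on day 7, and 1.98, 2.2 and 3 CPM on day 10, rose 3.29-fold (log2 1.72 ± 0.32 SE, adjusted p = 0.00107), and day 7 replicate 2 lay below day 3 replicate 1.

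Oasl2, a relative of the enzymes that activate RNase L, had 2.79, 3.82 and 2.16 CPM on day 3, 12.7, 8.06 and 15.3 CPM on day 7, and 5.5, 10.7 and 11.9 CPM on day 10. Every later library lay above day 3, with the 2 highest values on day 7. It rose by day 7 (log2 2.03 ± 0.35 SE, adjusted p = 0.00146) and was still higher on day 10 than on day 3 (log2 1.68 ± 0.35 SE, adjusted p = 0.00256). Bst2 (tetherin), which holds budding virus at the cell surface, had 7.12, 5.72 and 5.55 CPM on day 3, 5.62, 6.58 and 7.45 CPM on day 7, and 8.58, 9.52 and 9.17 CPM on day 10. The day 10 libraries lay above all others, and the rise was 1.48-fold (log2 0.57 ± 0.15 SE, adjusted p = 0.00977). It was not called (adjusted p = 0.0599) without day 3 replicate 2 and day 10 replicate 3 together. Ifit2, an RNA-binding effector, ranged from 9.78 to 11.4 CPM on day 3, from 10.8 to 13.8 CPM on day 7 and from 10.6 to 15.9 CPM on day 10 and was not called.

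Rsad2 (viperin), an enzyme that makes a chain-terminating nucleotide, was the 1 gene of the 42 that fell. It had 7.88, 9.7 and 6.17 CPM on day 3, 1.55, 1.69 and 2.11 CPM on day 7, and 0.397, 1.6 and 2.68 CPM on day 10. All day 3 libraries lay above all later ones, and the day 10 values ran from below to above the day 7 range. The fall was already there on day 7 (log2 -2.15 ± 0.46 SE, adjusted p = 0.0047), and day 10 against day 3 gave log2 -2.30 ± 0.46 SE, adjusted p = 0.00219. Without day 10 replicate 3, the highest of its day, the log2 change was -2.93.

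Several classical interferon-induced genes were scarce or absent on all days. Mx1 had no read in any of the 9 libraries, and Mx2, its neighbour 73174 bases away, had 0.0353 to 0.434 CPM. Oas1a, which shares 57.6% of its 50-base stretches with Oas1g, had 0 to 0.197 CPM, Ifit1 0.106 to 0.631 CPM, Isg20 0.0394 to 0.706 CPM and Rtp4 0.04 to 0.529 CPM. These 6 did not pass the filter. Ifit3 had 0.347 to 1.84 CPM and was not called, and it shares 51.2% of its 50-base stretches with its copy Ifit3b. Ifi44 had 0.312 to 1.38 CPM and was not called, with a log2 change from day 3 to day 10 of 0.25 ± 0.45 (SE, adjusted p = 0.665) that turned to -0.09 without day 3 replicate 1 and to -0.03 without day 10 replicate 2. In all, 14 of the 42 genes had a mean under 2 CPM on every day, and 13 reached a mean of at least 10 CPM on some day.

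**Figure D3:**
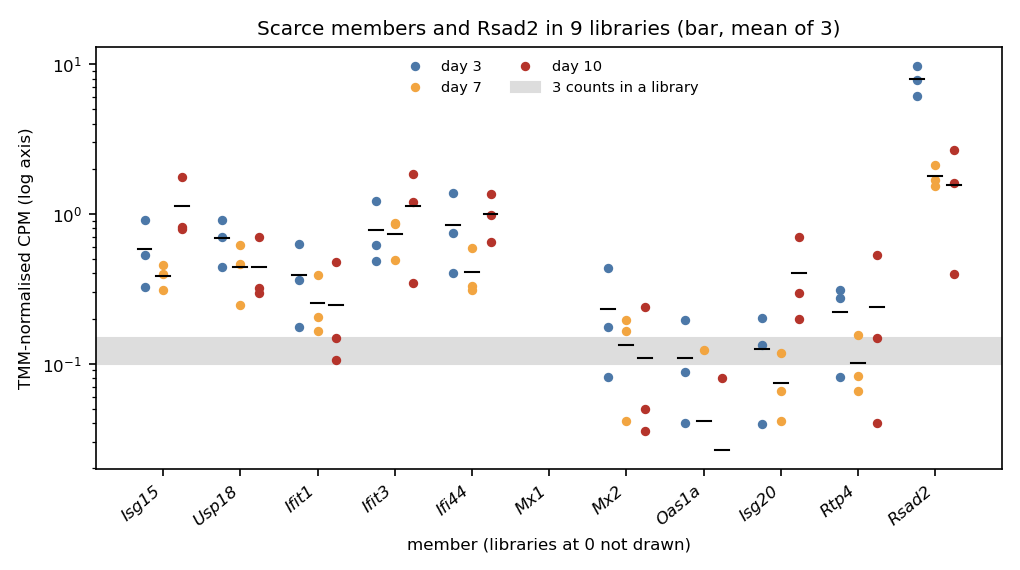
Scarce genes of the list and Rsad2 (horizontal axis) in TMM-normalised CPM on a log axis, 1 point a library with a bar at the mean of the 3 libraries of a day, day 3 to day 10 from left to right, and libraries at 0 not drawn. The grey band is the level of 3 reads in a library (0.0987 to 0.149 CPM). Mx1 has no point, several genes reach down to the band, and Rsad2 is the gene whose day 3 points lie apart above the later ones.

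Of the other interferon-induced genes 3 of 5 rose by day 10, 1 was not called (Ifi44) and 1 was not tested (Rtp4). Those that rose were 75% of the 4 tested, beside 29.5% of all tested genes called higher. Ifi27, a small membrane protein, had 14.6, 16.8 and 13.4 CPM on day 3, 40.6, 45.2 and 49.4 CPM on day 7, and 47.2, 57 and 54.8 CPM on day 10. It rose 3.54-fold by day 10 (log2 1.82 ± 0.12 SE, adjusted p = 1.59e-06), and day 10 overlapped day 7. Its gene model overlaps Ifi27l2a, which had 13 reads over the day 3 libraries, 20 on day 7 and 25 on day 10. Ifi35, a regulator of RNA sensing, had 1.7, 1.85 and 2.2 CPM on day 3, 6.87, 6.5 and 7.37 CPM on day 7, and 9.47, 8.8 and 10.9 CPM on day 10. The 3 days were separate and the rise was 5.07-fold (log2 2.34 ± 0.16 SE, adjusted p = 2.39e-06). Xaf1, which acts in cell death, was scarce at 0.162, 0.158 and 0.0881 CPM on day 3, 0.23, 0.165 and 0.468 CPM on day 7, and 0.644, 1.12 and 1.59 CPM on day 10. Its days did not overlap, but the closest libraries of day 3 and day 7 held 4 reads each. Day 7 against day 3 was not called (adjusted p = 0.198). Xaf1 rose by day 10 (log2 3.01 ± 0.52 SE, adjusted p = 0.00072), and the ratio of the summed reads, 86 on day 10 against 10 on day 3, was 8.52 with a 95% counting interval of 4.41 to 18.4. Xaf1 passed the low-count filter only through day 10, where it was high. Its place among the genes that rose is therefore a description.

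Outside the 42, 52 further interferon-induced effectors were counted, of which 16 rose by day 10, 5 fell, 12 were not called and 19 were not tested, with a median log2 change of 0.63. The 16 were 48.5% of the 33 tested, beside 29.5% of all tested genes called higher. Zc3hav1 (ZAP), which destroys viral RNA, averaged 12 ± 0.549 CPM on day 3, 29.2 ± 0.379 CPM on day 7 and 41.4 ± 7.12 CPM on day 10 (SD, n = 3 each), with log2 1.79 ± 0.12 SE, adjusted p = 2.41e-06 for day 10 against day 3. Ifi30, a lysosomal reductase of antigen processing, had 19.4, 20.3 and 22.1 CPM on day 3, 105, 74.8 and 116 CPM on day 7, and 101, 109 and 202 CPM on day 10 (log2 2.74 ± 0.27 SE, adjusted p = 3.34e-05), with day 10 replicate 3 far above the rest. These 2 rose, and Gbp4 and Gbp9 fell.

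Of the 27 genes that rose from day 3 to day 10, 26 had a day 7 mean between the other 2, 16 were called by day 7, 6 were called at both steps and 9 at neither single step. The same counts over all genes that rose by day 10 were not made, so this pattern is not shown to be particular to these genes. In 26 of the 36 tested genes all day 10 libraries lay above all day 3 libraries, and in 2 (Dhx58 and Rsad2) all lay below, beside 32.5% and 31.9% of all tested genes. Between day 10 and day 7, 23 lay wholly above and 0 wholly below, beside 13.4% and 12.6% of all tested genes. A direct test of the second step minus the first called 6 of the 36 lower (Oasl2, Trim25, Ifi27, Ifi35, Tap2 and B2m) and 0 higher in edgeR, beside 5.96% of all tested genes called lower and 2.06% called higher, 8.03% in either direction. The count was 3 without day 3 replicate 1, day 3 replicate 3 or day 7 replicate 1. At an unadjusted p under 0.05 that test had 7 lower and 3 higher, beside 13.7% and 8.05% of all tested genes, and DESeq2 called 7 lower and 0 higher, beside 7.7% and 3.59%. The differences were -2.38 ± 0.55 (SE, adjusted p = 0.0299) on the log2 scale for Oasl2, -1.80 ± 0.40 (SE, adjusted p = 0.0237) for Tap2 and -1.36 ± 0.19 (SE, adjusted p = 0.00262) for Ifi27. For Ifi35 the difference was -1.36 ± 0.26 (SE, adjusted p = 0.0111), for B2m -0.85 ± 0.15 (SE, adjusted p = 0.00893) and for Trim25 -0.59 ± 0.14 (SE, adjusted p = 0.0304). For these 6 the change from day 3 to day 7 exceeded that from day 7 to day 10. The calls of Ifi27, Ifi35 and B2m held without any 1 library, those of Tap2 and Oasl2 were lost without day 3 replicate 1 or 3 or day 7 replicate 1 or 3 (adjusted p between 0.0509 and 0.125), and that of Trim25 without 6 of the 9 libraries (day 3 replicates 1, 2 and 3, day 7 replicates 1 and 2, and day 10 replicate 2), with adjusted p between 0.0543 and 0.142. The steps span 4 and 3 days.

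**Figure D4:**
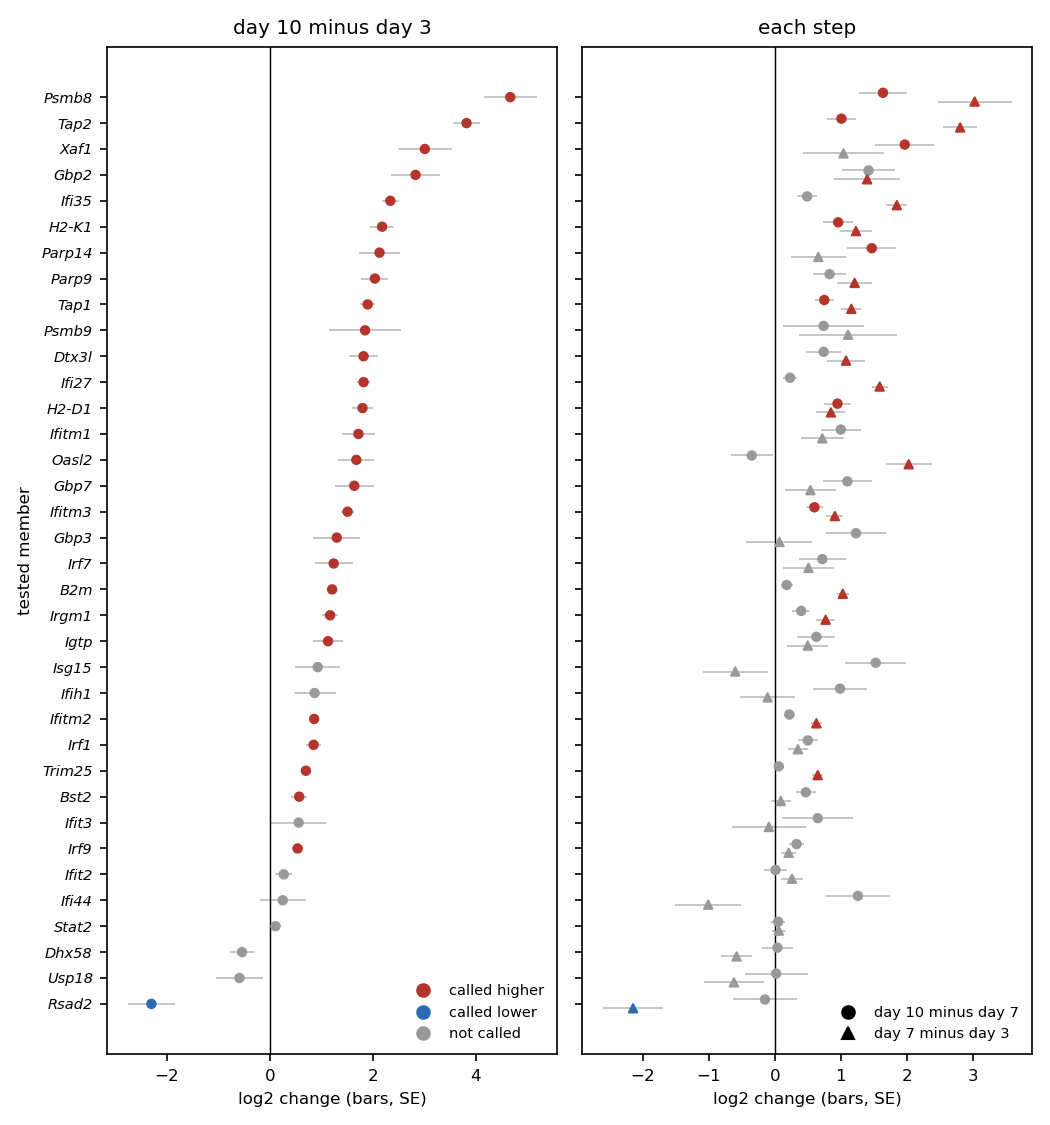
Log2 changes of the 36 tested genes (rows, ordered by the change from day 3 to day 10) with bars of 1 SE, over the whole time (left) and for each step (right, circles for day 10 minus day 7 and triangles for day 7 minus day 3). Red is called higher, blue called lower and grey not called. The left panel has 27 red points and 1 blue point (Rsad2), and in the right panel 16 triangles and 8 circles are red.

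The libraries of a day did not share 1 level. Day 10 replicate 3 was the highest of its day in 24 of the 36 tested genes and the lowest in 0, and its median log2 difference from the day 3 mean was 1.2, against 0.86 in replicate 1 and 1.04 in replicate 2. Day 7 replicate 3 was the highest of its day in 23 genes and day 3 replicate 2 in 19. With day 3 replicate 2 and day 10 replicate 3 both left out, 25 of the 42 genes still rose by day 10 and 1 fell, and 16 rose by day 7. The summed leukocyte markers of day 10 were 12.7 CPM in replicate 1, 9.4 CPM in replicate 2 and 8.29 CPM in replicate 3, and their part in the differences between libraries was not tested.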

How the data were processed

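PolyA RNA of 9 pneumosphere libraries was prepared with an Illumina TruSeq RNA kit, per the labels' protocols. The deposited values are whole-number read counts per Entrez gene ID, made by the authors with featureCounts against the mm10 genome, as the submitters' processing notes give it. For the aligner, annotation, strand setting and reads with several matches, the choice is not given in the sources used here. Of 27179 gene IDs, 25275 were named from the RefSeq table of GRCm38.p6, and 1904 were not.

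The counts of all 9 libraries were fitted in R 4.3.3 with edgeR 4.0.16 (filterByExpr by day, TMM factors, robust quasi-likelihood F test), and p-values were adjusted over the 14940 genes tested. CPM are counts per 1000000 of the TMM-scaled library total, and the common biological coefficient of variation was 0.146. A gene scarce on 2 days can pass the filter through the third day alone, as Xaf1 did through day 10. Psmb8, Psmb9 and Gbp2 passed it only through day 7 and day 10 libraries. Counts over tested genes are therefore a description. The same fit was also run on counts simulated with the day 3 means and the spread of the main fit. The 3-read floor and the counting intervals hold counting error alone, because PCR reads counted without identifiers can repeat a molecule. Libraries of the same day differed by more than sampling noise in every pair (chi-square per degree of freedom 8.05 to 127), so each counted as 1 sample.

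The members and the pathway and marker lists were chosen with earlier results of these data known. Members called among the 3 days, and Psmb9, are described with every library's value, the others by ranges. At most 4 genes of a pathway list are named by the smallest p, plus the ligands and receptors, the standard proteasome subunits and the sensor Ddx58. 1 gene that this rule names is not reported here. Gbp4 and Gbp9 were named under this rule and are described beside the other GTPases. Promoter windows and their letters come from RefSeq, and the shares of 50-base stretches from the GENCODE M21 transcripts. Alternatives were other scaling factors, other filters, DESeq2 1.42.0, a fit without robust estimation, a replicate block, fits of 2 days only, and leaving out libraries.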

Additional observations from a re-analysis of the deposited data

How the results depend on the processing

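Of the 28 genes called for day 10 against day 3, 24 kept direction and call under every alternative in which they were tested. Xaf1, 1 of the 24, was tested in 18 of 19, as it did not pass the filter of at least 1 CPM in 3 libraries. Psmb9, Gbp3, Irf7 and Bst2 lost the call under some. Of the 17 called for day 7 against day 3, 15 kept it, and Gbp2 and Dtx3l did not (Dtx3l without day 3 replicate 3, adjusted p = 0.0544). All 8 calls for day 10 against day 7 were lost under some alternative.

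The count of genes that rose by day 10 was 24 to 27 when 1 library was left out, and 24 with a filter of at least 1 CPM in 3 libraries. Genes that fell by day 10 were 2 with library size alone as scaling and 1 to 2 without 1 library. Genes that rose by day 7 were 14 to 17 without 1 library, and those that fell by day 7 were 2 with upper-quartile factors, 2 with only the 2 days in the fit, and 1 to 2 without 1 library. Genes higher on day 10 than on day 7 were 17 in DESeq2, 2 with only the 2 days, 4 without day 3 replicate 2 and day 10 replicate 3, and 0 to 11 without 1 library. All genes called in that comparison were 1271, with 2114 in DESeq2, 290 with only the 2 days and 304 to 1548 without 1 library. Genes called in the test of the second step minus the first were 3 to 7 without 1 library, and genes called among the 3 days 24 to 29. The change of Ifi44 from day 3 to day 10, not called, lay between -0.09 and 0.81 when 1 library was left out, and was -0.03 without day 10 replicate 2. The cause was not tested.

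The labels do not say whether libraries of the same number belong together. Deviations of same-numbered libraries correlated at -0.0694 to 0.433, and those of different numbers at -0.356 to 0.221. Not every library correlated best with its own number, so a pairing is neither shown nor excluded. With the number as a replicate block, 27 genes rose and 1 fell by day 10, 16 rose and 1 fell by day 7, 10 rose and 0 fell between day 10 and day 7, 5 were called in the test of the steps and 26 among the 3 days. In that fit Isg15 was called higher on day 10 than on day 3 (adjusted p = 0.0352) and Psmb9 was not (0.0645). Gbp2 on day 7 against day 3 (0.0507), H2-K1 on day 10 against day 7 (0.0506) and Trim25 in the test of the steps (0.0515) also lost their calls. Depth limits the scarcest genes, where 3 reads stood for up to 0.149 CPM.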
